A study of Drosophila melanogaster with 18 samples.

Results

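TFAM overexpression in neurons was compared with the control in the central nervous system (CNS) of Drosophila larvae at the end of the third instar. The comparison uses 6 of the 18 arrays of the series and all 18769 probe sets left once the control probe sets of the array were set aside. TFAM o/e larvae (nsybGal4/UAS-TFAM3M) carried the pan-neuronal driver nsybGal4 and a UAS-TFAM3M transgene, and control larvae (nsybGal4/+) the driver alone. Both genotypes therefore share nsybGal4, which acts in post-mitotic neurons, while the dissected CNS also holds glia, neuroblasts and attached tissue. Each genotype had 3 arrays, and each array was made from the pooled CNS of 20 larvae grown at 25 °C. The other 12 arrays are labelled Pnt RNAi or Aop RNAi, with the same driver and each with and without UAS-TFAM3M, 3 arrays per genotype. They are used here for the common estimate of spread and to read the effect of TFAM overexpression again in arrays that it does not share with the control. The values are log2 signals from Affymetrix Drosophila Genome 2.0 arrays as deposited. A signal is reported mainly for the 8556 probe sets with a mean log2 of 6 or more over the 6 arrays, and the number of arrays limits the precision.

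TFAM is the mitochondrial transcription factor A, an abundant protein that packages mitochondrial DNA and is needed for its transcription and maintenance. An excess of TFAM can repress mitochondrial gene expression. Retrograde signaling is the path from a mitochondrion in trouble back to the nucleus. Its known outputs include mitochondrial chaperones, a shift from oxidative metabolism to lactate production, the amino acid stress response and detoxifying enzymes. In the larval brain, insulin-like peptides are released from a small cluster of neurosecretory neurons.

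In the CNS of TFAM o/e larvae 34 probe sets passed the test against the control, 20 higher (0.107% of all tested) and 14 lower (0.0746%), which is 0.181% in all. The test was limma over all 6 genotypes, and a probe set is called where its Benjamini-Hochberg adjusted p was under 0.05. Among those with a mean log2 of 6 or more, 24 were called (0.281%), 14 higher (0.164%) and 10 lower (0.117%). In each of the 24 the groups did not overlap, as in 3.4% of the 8556 with higher and 5.65% with lower signals in TFAM o/e arrays. Without any adjustment, 191 of the 8556 were higher (2.23%) and 274 were lower (3.2%) at p under 0.05. Called genes with a higher signal in TFAM o/e larvae were TFAM itself, the lactate dehydrogenase gene Ldh, the heat shock cognate Hsc70-2, the glutathione S-transferase GstD2, the lipase Hsl, the metallopeptidase Nepl3, the fucosyltransferase FucTB, and CG15784, CG7607, CG18343 and CG42694. Called genes with a lower signal were the zinc transporter Zip102B, the insulin-like peptide Ilp3, the heparan sulfate synthesis gene botv, the transcription factor Sox102F, the receptor gene mthl8, and CG8858, CG5326 and CG13679. The other 5 of the 24 are probe sets with several gene symbols (3) or with none (2). The share of higher calls was 58.8%, against 74.2% after median centring of the arrays and 68.6% after quantile normalization. The median change over the 8556 probe sets was -0.01 on the log2 scale, and 5% to 95% of them lay between -0.36 and 0.41.

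**Figure D1:**
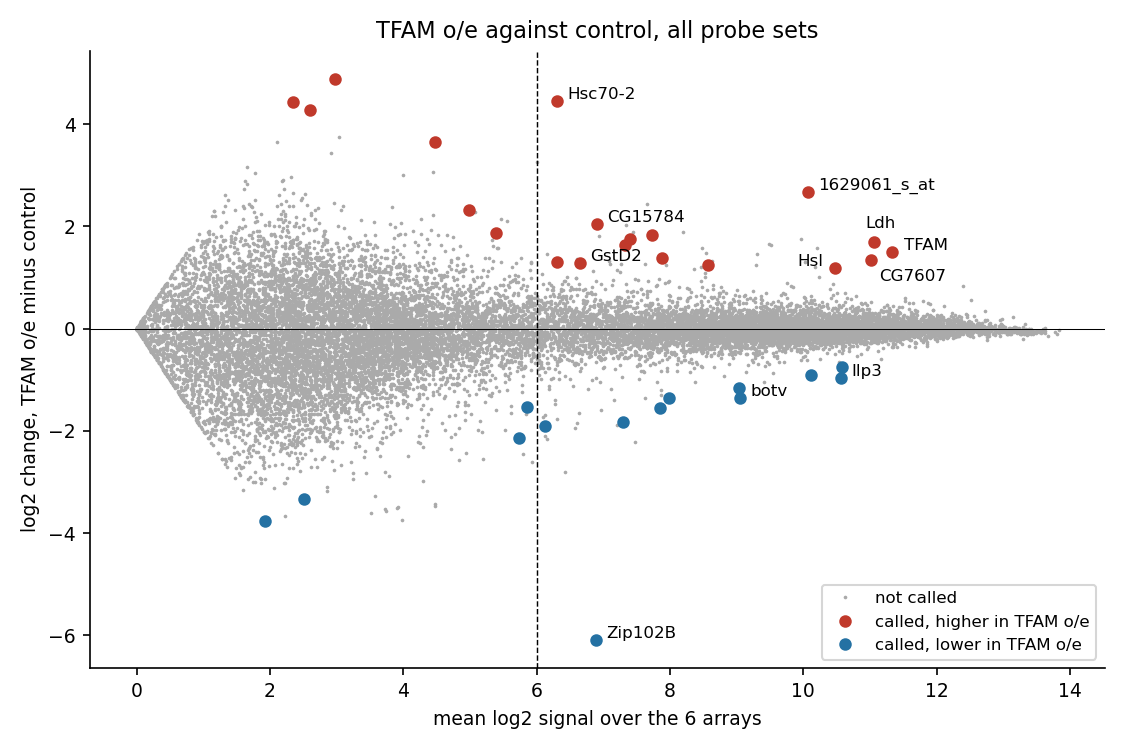
Log2 change (TFAM o/e minus control, y axis) against the mean log2 signal over the 6 arrays (x axis) for all 18769 probe sets, with the 20 called higher in red and the 14 called lower in blue, and a dashed line at a mean log2 of 6. Called probe sets to the right of the line reach from -6.09 for Zip102B to 4.45 for Hsc70-2, outside a band in which 5% to 95% of the probe sets lie between -0.36 and 0.41, while the band to the left of the line runs from -1.69 to 1.28.

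One array stood apart before any comparison. In control replicate 3 the 3′ probe set of Act5C exceeded the 5′ probe set by 4.42 on the log2 scale, against 0.9 to 2.5 in the other arrays of the series. The gaps for GAPDH and eIF-4a in that array were 2.92 and 3.90. A wide gap means that the 5′ part of a transcript is poorly represented. This array correlated with its own group at r = 0.943 and 0.944 over probe sets with a mean log2 of 6 or more, while control replicates 1 and 2 correlated with each other at r = 0.980. The median SD of a probe set was 0.16 in the TFAM o/e arrays and 0.25 in the control arrays, or 0.13 without control replicate 3. Without this array 21 probe sets were called, of which 20 are among the 34, and 16 of the 24 with a mean log2 of 6 or more kept their call. With array quality weights estimated by limma, chosen after this array was seen, 76 were called and all 34 were among them. Its part in each change was not tested beyond these values and the fits without it. Without it the 8 probe sets of the 24 that lost their call were CG42694, botv, Nepl3, 1623559_s_at, mthl8, Hsl, CG5326 and CG13679, with adjusted p from 0.0568 to 0.159.

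**Figure D2:**
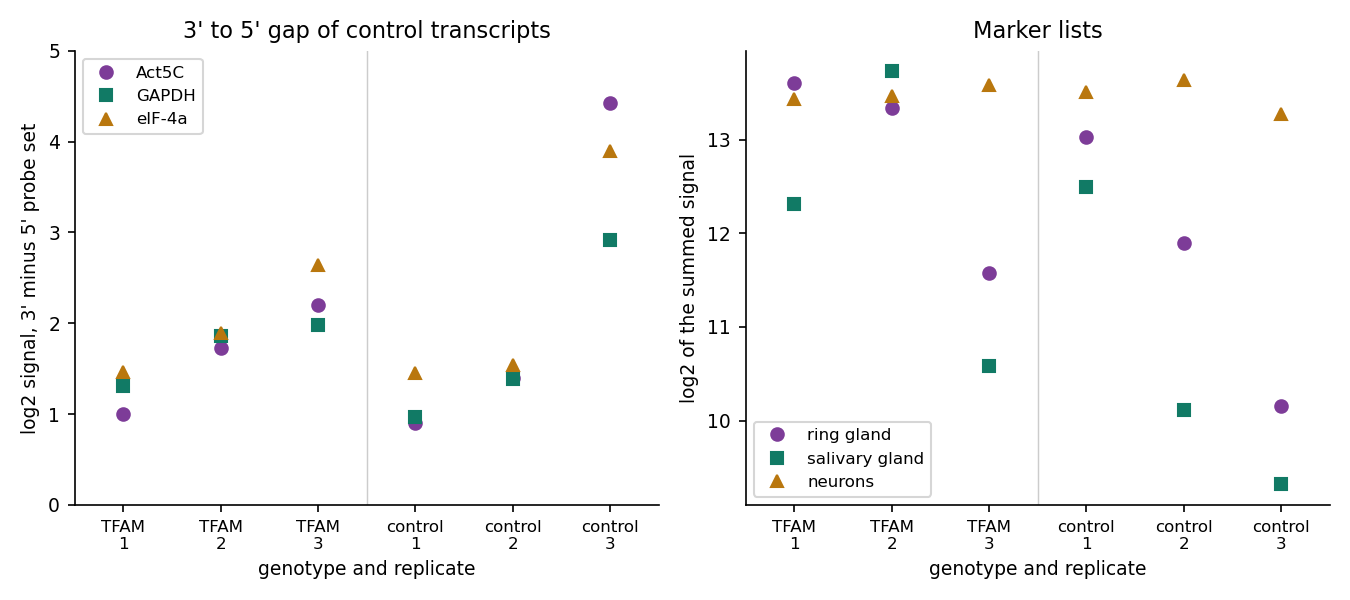
The left panel shows, for each of the 6 arrays (x axis), the log2 signal of the 3′ minus the 5′ probe set of Act5C, GAPDH and eIF-4a, and the right panel the log2 of the summed signal of the marker lists for ring gland, salivary gland and neurons. Control replicate 3 has the widest gaps, 4.42, 2.92 and 3.90, and the lowest ring and salivary gland sums, 10.16 and 9.32, while neuronal markers lay between 13.27 and 13.64 in all 6 arrays.

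The tissue carried the markers of the CNS. The neuronal gene elav read 11.82 to 12.11 in the TFAM o/e arrays and 11.81 to 12.03 in the control arrays, and the glial gene repo read 11.67 to 11.83 in TFAM o/e arrays and 11.67 to 11.85 in control arrays. None of the 8 neuronal, 5 glial and 5 neuroblast marker probe sets with a mean log2 of 6 or more was called, with median changes of 0.01, -0.08 and -0.02. Genes of attached tissues varied from array to array. The 7 ring gland markers summed to 11.58 to 13.61 on the log2 scale in TFAM o/e arrays and 10.16 to 13.03 in control arrays. The 7 salivary gland markers, mostly glue genes, summed to 10.58 to 13.73 in TFAM o/e arrays and 9.32 to 12.50 in control arrays, and ng4 among them was at 0 in all 3 TFAM o/e arrays. The groups overlap in both lists. Their median changes were 1.21 and 1.65 with none called, and 0.28 and 0.99 without control replicate 3. The 6 testis markers summed to 9.98 in control replicate 3, against 8.09 to 8.71 in the other arrays compared, and none was called. The part of these tissues in the calls was not tested.

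TFAM checked the labels. Its probe set read 12.04, 12.08 and 12.12 in the TFAM o/e arrays, against 10.76, 10.50 and 10.49 in the control arrays. The 2 groups are 1.28 apart at their nearest arrays, and the change was 1.5 (± 0.17 SE, limma adjusted p = 0.000166), or 2.82-fold. Whether the probe set reads the transgene, the endogenous transcript or both was not tested. The other 12 genes on the list of mitochondrial DNA maintenance and expression did not move with it. None of their probe sets was called, and their changes ran from -0.51 for Lrpprc2, of the family of mitochondrial RNA binding proteins, to 0.19 for bor. The mitochondrial RNA polymerase PolrMT had a change of -0.20 (± 0.20 SE) and the DNA polymerase subunit PolG1 of 0.01 (± 0.15 SE). None of the 15 genes encoded in mitochondrial DNA was matched to a probe set with 1 symbol, so no mitochondrial transcript is given here. Whether probe sets with several symbols or none read such transcripts was not tested.

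Among stress proteins, 2 probe sets rose. Probe set 1629061_s_at, assigned by the platform table to both Hsp22 and CG4456, read 11.65, 11.23 and 11.33 in TFAM o/e arrays and 8.72, 8.30 and 9.17 in control arrays. Hsp22 is a small heat shock protein found in mitochondria. The groups are more than 2 log2 units apart, and the change was 2.67 (± 0.25 SE, limma adjusted p = 3.4e-05), or 6.38-fold. Probe set 1630487_s_at, assigned to the same 2 symbols, gave 8.38, 8.46 and 6.43 in TFAM o/e arrays and 8.55, 7.02 and 6.19 in control arrays. Those groups overlap, with a change of 0.50 (± 0.63 SE), so only 1 of the 2 probe sets was called and no level is given here to either gene.

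Hsc70-2, a heat shock cognate of the Hsp70 family, read 8.68, 8.62 and 8.32 in TFAM o/e arrays and 3.47, 2.86 and 5.94 in control arrays. All TFAM o/e arrays are high and close together, and the control array that comes nearest is replicate 3. The change was 4.45 (± 0.85 SE, limma adjusted p = 0.0336), and 5.37 (adjusted p = 0.0108) without control replicate 3. Its call was lost in 5 of 6 fits with an array left out, with adjusted p up to 0.189. Since 2 control arrays lie under log2 5, the size is better read with signals under 32 (log2 5) set to 32, where it was 3.23 (adjusted p = 3.51e-06). Of the other 8 probe sets of cytosolic heat shock proteins with a mean log2 of 6 or more none was called, with changes from -0.07 for stv, a co-chaperone gene, to 0.35 for the small heat shock gene Hsp26.

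Among the listed mitochondrial chaperones and proteases changes were small. The gene lists hold only probe sets with 1 symbol, so 1629061_s_at, shared by Hsp22 and CG4456, is not on this list. None of the 15 listed probe sets with a mean log2 of 6 or more was called, and their changes lay between -0.10 and 0.26 with a median of 0.02. The matrix chaperones Hsp60A and Hsc70-5 averaged 11.06 ± 0.03 and 11.43 ± 0.02 in TFAM o/e arrays, against 10.83 ± 0.23 and 11.34 ± 0.20 in control arrays (SD, n = 3). The nuclear-encoded subunits of the respiratory chain were called in no case, among 29 probe sets of complex I, 12 of complexes II and III, 10 of complex IV and 15 of ATP synthase. Their median changes were -0.04, -0.06, -0.06 and -0.05, and 0.07, -0.08, 0.14 and 0.14 without control replicate 3. Within ATP synthase ATPsynepsilonL stood out with 0.93 (± 0.30 SE) but missed the threshold (adjusted p = 0.584). The 73 probe sets of mitochondrial ribosomal proteins had a median of -0.02, and none was called.

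The insulin-like peptides did not change together. Ilp3 read 10.08, 10.13 and 10.05 in TFAM o/e arrays and 10.96, 11.00 and 11.21 in control arrays. Every TFAM o/e array is lower than every control array by at least 0.83, and the change was -0.97 (± 0.11 SE, limma adjusted p = 0.000286), or 0.511 of the control signal. In bulk tissue fewer cells of a type and less RNA per cell cannot be told apart. Ilp2 and Ilp5, which the same neurosecretory neurons express, were not called, with 11.35, 12.03 and 12.33 for Ilp2 in TFAM o/e arrays against 11.22, 11.22 and 11.77 in control arrays. Ilp5 read 11.80, 12.16 and 12.25 in TFAM o/e arrays and 12.06, 11.79 and 12.53 in control arrays. Both genes overlap between the groups, with changes of 0.50 (± 0.23 SE) and -0.06 (± 0.22 SE). Ilp1 is dimmer, with 4.52, 5.15 and 4.34 in TFAM o/e arrays and 6.22, 6.73 and 7.47 in control arrays. Its change was -2.14 (± 0.39 SE, limma adjusted p = 0.0241), and the adjusted p was 0.130 without control replicate 3. In the order of genes in RefSeq's Release 6 annotation, only 1 gene lies between Ilp1 and Ilp3. That gene is Ilp2, which was not called and did not fall with them. The other members of the insulin list had no call, among them the receptor InR (-0.18), the kinase Akt (0.06), the transcription factor foxo (0.17) and the insulin binding protein ImpL2 (0.35).

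Thor, the translation inhibitor 4E-BP and a target of both foxo and the amino acid stress response, had a wide spread. It read 11.29, 10.93 and 10.33 in TFAM o/e arrays 1, 2 and 3, and 10.07, 9.10 and 8.11 in control arrays 1, 2 and 3. The groups do not overlap, and the change of 1.76 (± 0.56 SE) did not pass in the main limma fit (adjusted p = 0.566). In all 6 genotypes array 1 was the highest and array 3 the lowest for Thor. In the alternative fit with a term for the replicate number (the replicate block) Thor passed, as given in the last section. The amino acid stress response list had 16 probe sets with a mean log2 of 6 or more, none of them called, and a median of 0.13. P5cr, an enzyme of proline synthesis, had a change of 0.51 and the asparagine synthetase gene AsnS of 0.39.

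In carbon metabolism Ldh alone was called. Ldh, which converts pyruvate to lactate, read 11.85, 11.79 and 12.09 in TFAM o/e arrays and 10.81, 9.90 and 9.94 in control arrays. Control replicate 1 is the highest of the control arrays and still lies 0.98 under the lowest TFAM o/e array. The change was 1.69 (± 0.23 SE, limma adjusted p = 0.00141), or 3.23-fold, and the call held with each array left out. The remaining 20 probe sets of the glycolysis and lactate list with a mean log2 of 6 or more had no call. Tret1-1, a trehalose transporter, had a change of 1.31 (± 0.29 SE, adjusted p = 0.101) and the hexokinase gene Hex-A of 0.61 (± 0.25 SE), whereas phosphofructokinase (Pfk) was at -0.07 and enolase (Eno) at 0.02, and 1 probe set of the aldolase gene Ald1 was lowest at -0.65 (adjusted p = 0.623). The 17 probe sets of the citric acid cycle had a median of 0.03 with no call. Other HIF pathway genes, such as Vhl (-0.12) and scyl (0.19), also had none.

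Hsl, hormone-sensitive lipase, read 11.05, 11.14 and 10.99 in TFAM o/e arrays and 9.67, 10.48 and 9.49 in control arrays, a change of 1.18 (± 0.22 SE, limma adjusted p = 0.0265). CG5326, a predicted fatty acid elongase, read 4.75, 5.73 and 5.04 in TFAM o/e arrays and 7.18, 6.31 and 7.74 in control arrays, a change of -1.90 (± 0.36 SE, adjusted p = 0.0267). The groups do not overlap for either gene, but the call of Hsl was lost in 5 and that of CG5326 in 4 of 6 fits with an array left out (adjusted p up to 0.159 and 0.174). The 2 other CG5326 probe sets, at mean log2 of 4.57 and 1.90, had changes of -0.40 and -0.37 and were not called. CG9864, which RefSeq places next but one to Hsl, was listed at 4.87, 4.60 and 4.75 in TFAM o/e arrays and 0, 0.60 and 0.80 in control arrays, all under log2 5.

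GstD2 was the 1 called member of the glutathione S-transferases, enzymes that conjugate glutathione to toxic compounds. It read 7.23, 6.97 and 7.67 in TFAM o/e arrays and 5.88, 5.67 and 6.49 in control arrays. The nearest arrays are 0.48 apart, and the change was 1.28 (± 0.25 SE, limma adjusted p = 0.0351), or 2.42-fold. The call was lost in 5 of 6 fits with an array left out (adjusted p up to 0.273), and held without control replicate 3 (1.52, adjusted p = 0.0108). The other 23 probe sets of the family with a mean log2 of 6 or more ranged from -0.61 for GstD3 to 1.21 for GstE14. Antioxidant genes had no call among 14 probe sets, with changes from -0.76 for 1 Sod3 probe set, for an extracellular superoxide dismutase, to 1.08 for Gclc, the catalytic subunit of glutathione synthesis, both with groups that overlap. The mitochondrial Sod2 and the catalase gene Cat were at -0.20 and -0.26.

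Zip102B, which encodes a zinc transporter of the ZIP family, had the largest change of all 18769 probe sets. It read 2.61, 5.51 and 3.43 in TFAM o/e arrays and 10.12, 9.96 and 9.74 in control arrays. The control arrays are uniformly bright while 2 of 3 TFAM o/e arrays lie under log2 5. The change was -6.09 (± 0.55 SE, limma adjusted p = 3.39e-05), and -4.77 (adjusted p = 3.92e-09) with signals under 32 set to 32. Sox102F, a SoxD family transcription factor, read 7.73, 7.32 and 6.88 in TFAM o/e arrays and 8.76, 8.86 and 8.37 in control arrays, a change of -1.35 (± 0.25 SE, limma adjusted p = 0.0265). The call of Sox102F was lost in 4 of 6 fits with an array left out (adjusted p up to 0.199). Both genes lie on the small chromosome 4.

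**Figure D3:**
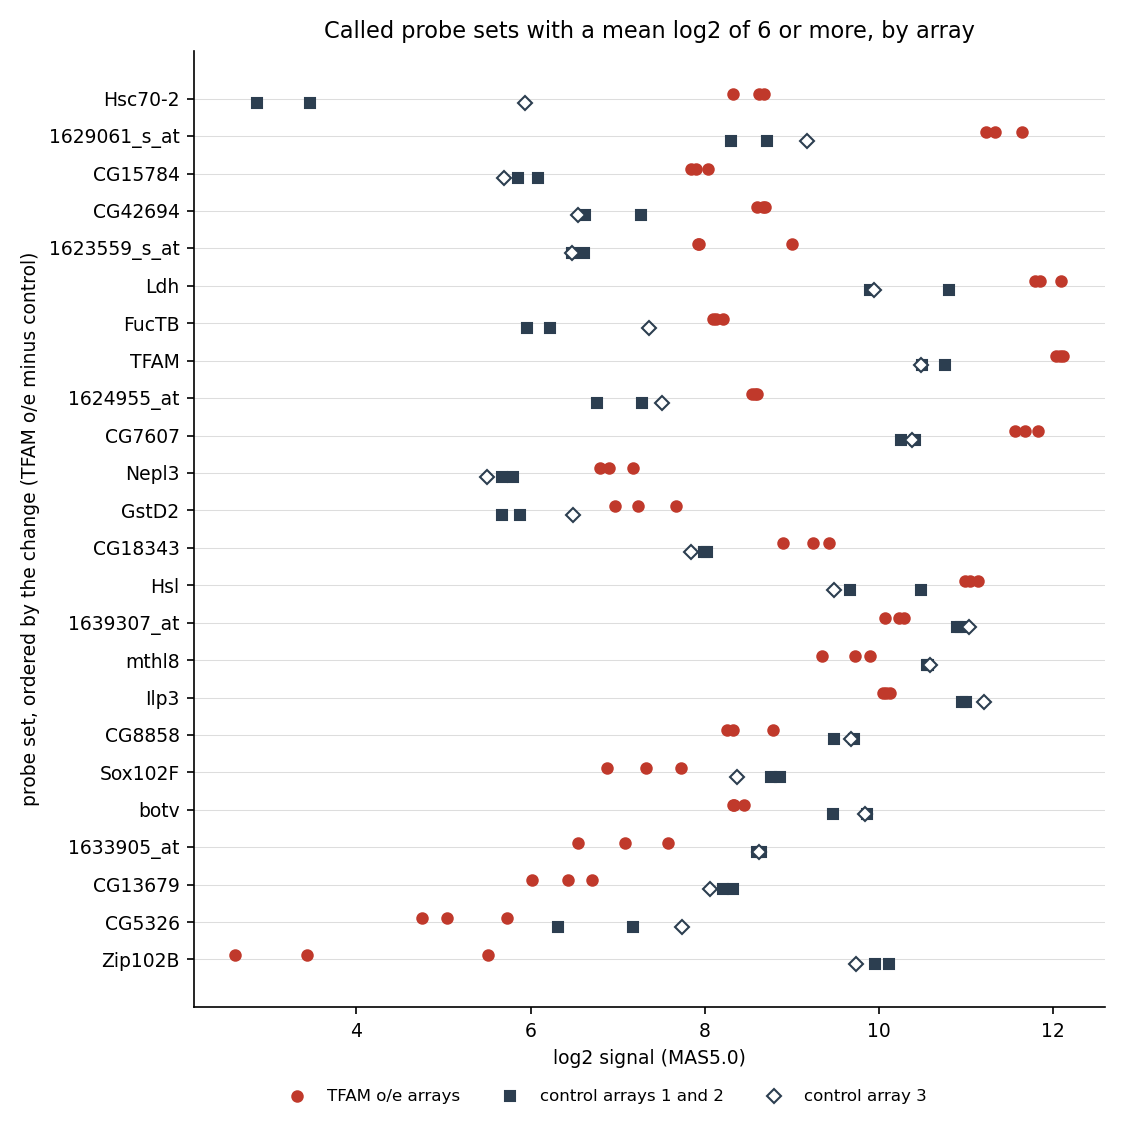
Log2 signal (x axis) of each TFAM o/e array (red circles) and control array (dark squares, with control array 3 as open diamonds) for the 24 called probe sets with a mean log2 of 6 or more, ordered by change with the largest rise at the top. The groups are apart in every row, and control array 3 is the control array nearest to TFAM o/e for Hsc70-2, 1629061_s_at, FucTB, 1624955_at and GstD2 among the higher probe sets, and for Zip102B, Sox102F and CG13679 among the lower ones.

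Further called genes act in glycan synthesis, protein turnover and reception. botv, an exostosin family gene of heparan sulfate synthesis, read 8.32, 8.34 and 8.45 in TFAM o/e arrays and 9.47, 9.86 and 9.84 in control arrays, a change of -1.35 (± 0.22 SE, limma adjusted p = 0.0099). FucTB, of the fucosyltransferase family, read 8.13, 8.21 and 8.10 in TFAM o/e arrays and 6.22, 5.96 and 7.36 in control arrays, a change of 1.63 (± 0.30 SE, adjusted p = 0.0245). With an array left out, the call of FucTB was lost in 5 of 6 fits (adjusted p up to 0.142), all but the 1 without control replicate 3 (0.000885), and that of botv in 4 of 6 (up to 0.0663). CG8858, the predicted homologue of the proteasome scaffold protein ECM29, read 8.26, 8.32 and 8.78 in TFAM o/e arrays and 9.48, 9.71 and 9.68 in control arrays, a change of -1.17 (± 0.15 SE, limma adjusted p = 0.000974). Nepl3, of the neprilysin-like metallopeptidases, averaged 6.96 ± 0.20 in TFAM o/e arrays and 5.66 ± 0.15 in control arrays, and mthl8, a methuselah-like receptor gene, 9.66 ± 0.28 in TFAM o/e arrays and 10.57 ± 0.02 in control arrays (SD, n = 3). Their changes were 1.30 and -0.91 (SE 0.22 and 0.17, limma adjusted p = 0.0131 and 0.0265), and neither kept its call without control replicate 3. The other mthl8 probe set, 1633386_s_at, had a change of -0.36 and was not called.

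Genes known only by their CG number gave some of the clearest separations. CG15784 read 7.90, 7.84 and 8.04 in TFAM o/e arrays and 5.85, 6.09 and 5.70 in control arrays, a change of 2.05 (± 0.21 SE, limma adjusted p = 7.39e-05), or 4.13-fold. CG7607 read 11.56, 11.83 and 11.68 in TFAM o/e arrays and 10.42, 10.26 and 10.38 in control arrays, a change of 1.34 (± 0.15 SE, adjusted p = 0.000196). Both calls held with each array left out, and the arrays of each group lie within 0.39 of each other. CG18343 and CG42694 had changes of 1.24 and 1.84 (SE 0.19 and 0.30, limma adjusted p = 0.00669 and 0.00971), the second with adjusted p = 0.0568 without control replicate 3. For CG13679, probe set 1631354_x_at was called with a change of -1.82 (± 0.35 SE, adjusted p = 0.0322), while 1632722_x_at and 1636778_at had changes of -1.39 and -1.60 and were not. Its call was lost with any of the 6 arrays left out.

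For 5 called probe sets no single gene can be named. Probe set 1633905_at, assigned to both RpL28 and snoRNA:Or-CD12, read 6.55, 7.58 and 7.08 in TFAM o/e arrays and 8.65, 8.60 and 8.62 in control arrays, a change of -1.55 (± 0.23 SE, limma adjusted p = 0.00328). The spread of the TFAM o/e arrays is wide and that of the control arrays is narrow. None of the 22 probe sets of cytosolic ribosomal proteins with a mean log2 of 6 or more was called, with changes from -0.15 to 0.12. Probe set 1639307_at, assigned to CG42375 and CG9288, had a change of -0.76 (± 0.12 SE, adjusted p = 0.0099). Probe sets 1624955_at and 1623559_s_at, with no symbol, had changes of 1.39 and 1.76 (SE 0.22 and 0.32, adjusted p = 0.00835 and 0.0245), and the second had an adjusted p of 0.0937 without control replicate 3.

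Under a mean log2 of 6, 10 probe sets were called, 6 higher and 4 lower, with changes from -3.77 to 4.89. The called probe set nearest above the limit was CG5326 at a mean of 6.12, and the nearest below were Best2 at 5.86 and Ilp1 at 5.74. Best2, a bestrophin channel gene, read 4.68, 5.36 and 5.25 in TFAM o/e arrays and 6.94, 6.52 and 6.42 in control arrays, a change of -1.53 (± 0.30 SE, limma adjusted p = 0.0377), which was lost with any of the 6 arrays left out (adjusted p up to 0.226). CG31157, the immediate neighbour of Hsc70-2 in RefSeq's order, was listed at 6.90, 4.97 and 4.38 in TFAM o/e arrays and 0, 0.49 and 1.10 in control arrays. Its change of 4.89 became 0.63 with signals under 32 set to 32 and was then not called (adjusted p = 1), so its size is not resolved. Among the 28 called probe sets placed on RefSeq's map, 4 pairs had at most 3 genes between them. They were CG31157 and Hsc70-2, CG9864 and Hsl, Ilp1 and Ilp3, and Best2 and Ldh, the last with opposite directions. Ilp2, which lies between Ilp1 and Ilp3, was not called and had a change of 0.50.

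The 10 probe sets just beyond the threshold, with a mean log2 of 6 or more, had adjusted p between 0.0519 and 0.0985. Arc2, of the Arc family derived from retrotransposon Gag proteins and regulated by neuronal activity, read 9.31, 9.15 and 9.03 in TFAM o/e arrays and 8.56, 8.37 and 8.14 in control arrays, a change of 0.81 (± 0.16 SE, limma adjusted p = 0.0532). Arc1 (1639180_at) read 12.68, 12.69 and 13.08 in TFAM o/e arrays and 11.94, 11.86 and 12.14 in control arrays, a change of 0.84 (± 0.21 SE, adjusted p = 0.254). The groups do not overlap in either, and with array quality weights the adjusted p were 0.0276 and 0.0279. The dimmer Arc1 probe set 1639694_s_at read 6.06, 5.96 and 4.96 in TFAM o/e arrays and 4.81, 5.16 and 2.15 in control arrays, which overlap (adjusted p = 0.834). Others in this range were the cyclin-dependent kinase gene Eip63E (1.02), the DNA repair gene mre11 (-0.66), the primase gene Prim2 (-0.58), the lysine degradation gene LKRSDH (0.75), the maltase gene Mal-B2 (-1.18), and CG5646 (0.91), CG2065 (1.13), CG4686 (-0.66) and CG6912 (-0.92). The ETS genes pnt and aop, which encode transcription factors downstream of ERK, had changes of -0.12 and -0.02, and none of the 23 probe sets of the Ras-ERK-ETS pathway was called, up to 0.76 for 1 probe set of the ERK phosphatase gene Mkp3 (adjusted p = 0.623). In the apoptosis and JNK list (19 probe sets, none called) the cell death gene grim was highest at 1.02 (adjusted p = 0.623). In the list of mitochondrial dynamics, transport and mitophagy (24 probe sets, none called) parkin (park) was lowest at -0.66 (adjusted p = 0.604). Nor was any of the 31 neuropeptide probe sets other than insulin-like peptides called, whose list has Akh (1.21) and AstCC (-0.49) at its ends, or any of 36 presynaptic and 20 voltage-gated channel probe sets. Akh is also among the ring gland markers, whose sums varied from array to array.

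The effect of TFAM overexpression was read again in 12 arrays that share none with this comparison, once between genotypes labelled Pnt RNAi and once between genotypes labelled Aop RNAi. The target genes did not show lower signals under these labels. The pnt probe set read 9.16 to 9.28 in arrays labelled TFAM o/e, Pnt RNAi and 9.34 to 9.66 in arrays labelled Pnt RNAi, above the 7.95 to 8.69 of control arrays. The aop probe set read 10.51 to 10.94 in arrays labelled TFAM o/e, Aop RNAi and 10.56 to 10.92 in arrays labelled Aop RNAi, which overlap the 10.62 to 10.71 of control arrays. These signals come from the whole CNS, while the driver acts in neurons. In eye discs the study reported strong loss of Aop and of PntP2 antibody staining with an RNAi line against each. Whether these probe sets can read the RNAi constructs was not tested, so the backgrounds are named by their labels only. In these comparisons 0.139% and 0.208% of all probe sets were called, and 0.257% and 0.339% of those with a mean log2 of 6 or more. Of the 24 called probe sets with a mean log2 of 6 or more, 8 passed in the same direction in both backgrounds, and no others passed in that direction in either. They were TFAM, 1629061_s_at, CG15784, Ldh, GstD2, Ilp3, CG8858 and botv. In each background 20 of the 24 kept their sign, and 15 of the 24 passed in neither background. All 3 comparisons use UAS-TFAM3M, so its insertion and its product cannot be told apart.

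**Figure D4:**
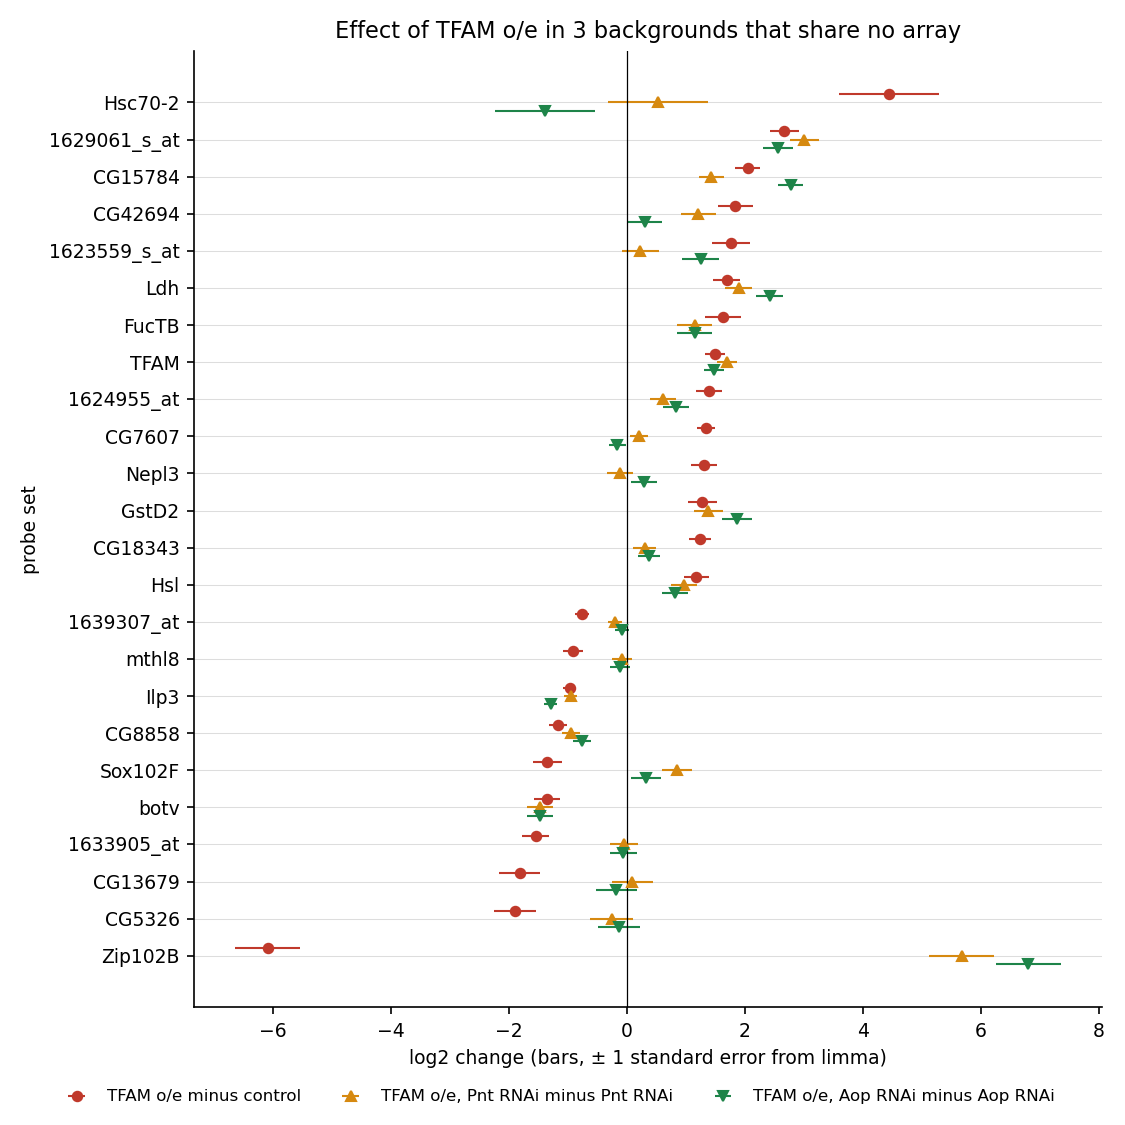
Log2 change with TFAM overexpression (x axis, bars ± 1 standard error from limma) for the 24 called probe sets in the control background (red), the background labelled Pnt RNAi (orange) and that labelled Aop RNAi (green), comparisons that share no array. Changes of Ilp3, botv, Ldh, TFAM and 1629061_s_at were called with 1 direction in all 3, those of 1633905_at, mthl8 and CG13679 are within 0.2 of 0 in both of these RNAi-labelled backgrounds, and Zip102B reads -6.09 in the control background and 5.68 and 6.81 in the others.

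Ilp3 read 9.94 to 10.15 in arrays labelled TFAM o/e, Pnt RNAi and 10.93 to 11.01 in arrays labelled Pnt RNAi, and 9.56 to 9.85 in arrays labelled TFAM o/e, Aop RNAi and 10.95 to 10.98 in arrays labelled Aop RNAi. All 9 arrays with TFAM overexpression are thus lower for Ilp3 than all 9 arrays without it. Ilp1 showed the same order, with 4.04 to 4.91 in arrays labelled TFAM o/e, Pnt RNAi and 5.77 to 6.56 in arrays labelled Pnt RNAi, and 4.23 to 4.68 in arrays labelled TFAM o/e, Aop RNAi and 6.54 to 7.32 in arrays labelled Aop RNAi. Its change with Pnt RNAi was -1.53 (adjusted p = 0.242) and with Aop RNAi -2.57 (adjusted p = 0.00292 from limma). Ldh read 11.75 to 11.90 in arrays labelled TFAM o/e, Pnt RNAi and 9.53 to 10.18 in arrays labelled Pnt RNAi, and 11.84 to 11.90 in arrays labelled TFAM o/e, Aop RNAi and 8.97 to 9.79 in arrays labelled Aop RNAi. Arc2, not called against the control, passed in both backgrounds, by 0.97 (adjusted p = 0.0149) and 1.21 (adjusted p = 0.000959), and its 9 arrays with TFAM overexpression lie at 9.03 or above while the 9 without it lie at 8.56 or below. Hsl gave the converse, since its 9 arrays with TFAM overexpression, at 10.79 or above, lie over the 9 without it, at 10.48 or below, but its changes of 0.97 and 0.81 did not pass in either background (adjusted p = 0.143 and 0.354).

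Other members gave a different picture outside the control background. Hsc70-2 read 3.72 to 4.26 in arrays labelled TFAM o/e, Pnt RNAi and 2.59 to 4.11 in arrays labelled Pnt RNAi, and 0.09 to 3.77 in arrays labelled TFAM o/e, Aop RNAi and 3.13 to 4.56 in arrays labelled Aop RNAi. The 3 arrays of TFAM o/e alone, at 8.32 to 8.68, are thus the only ones of the 18 above log2 6 for Hsc70-2. The test of the difference between its effects, past which came 0.0266% of all probe sets for Pnt RNAi and 0.0533% for Aop RNAi, did not pass (limma adjusted p = 0.849 against the Pnt RNAi and 0.186 against the Aop RNAi background). For CG7607 the change was 0.20 with Pnt RNAi and -0.16 with Aop RNAi. Its arrays labelled Pnt RNAi, with no TFAM transgene, already read 11.24 to 11.48, near the 11.56 to 11.83 of TFAM o/e. Zip102B read 8.91 to 9.13 in arrays labelled TFAM o/e, Pnt RNAi and 2.79 to 3.76 in arrays labelled Pnt RNAi, and 9.88 to 10.13 in arrays labelled TFAM o/e, Aop RNAi and 1.97 to 4.06 in arrays labelled Aop RNAi. It is therefore low in every array of the 3 genotypes labelled with 1 construct beside the driver and bright in every array of those with 2 or none.

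**Figure D5:**
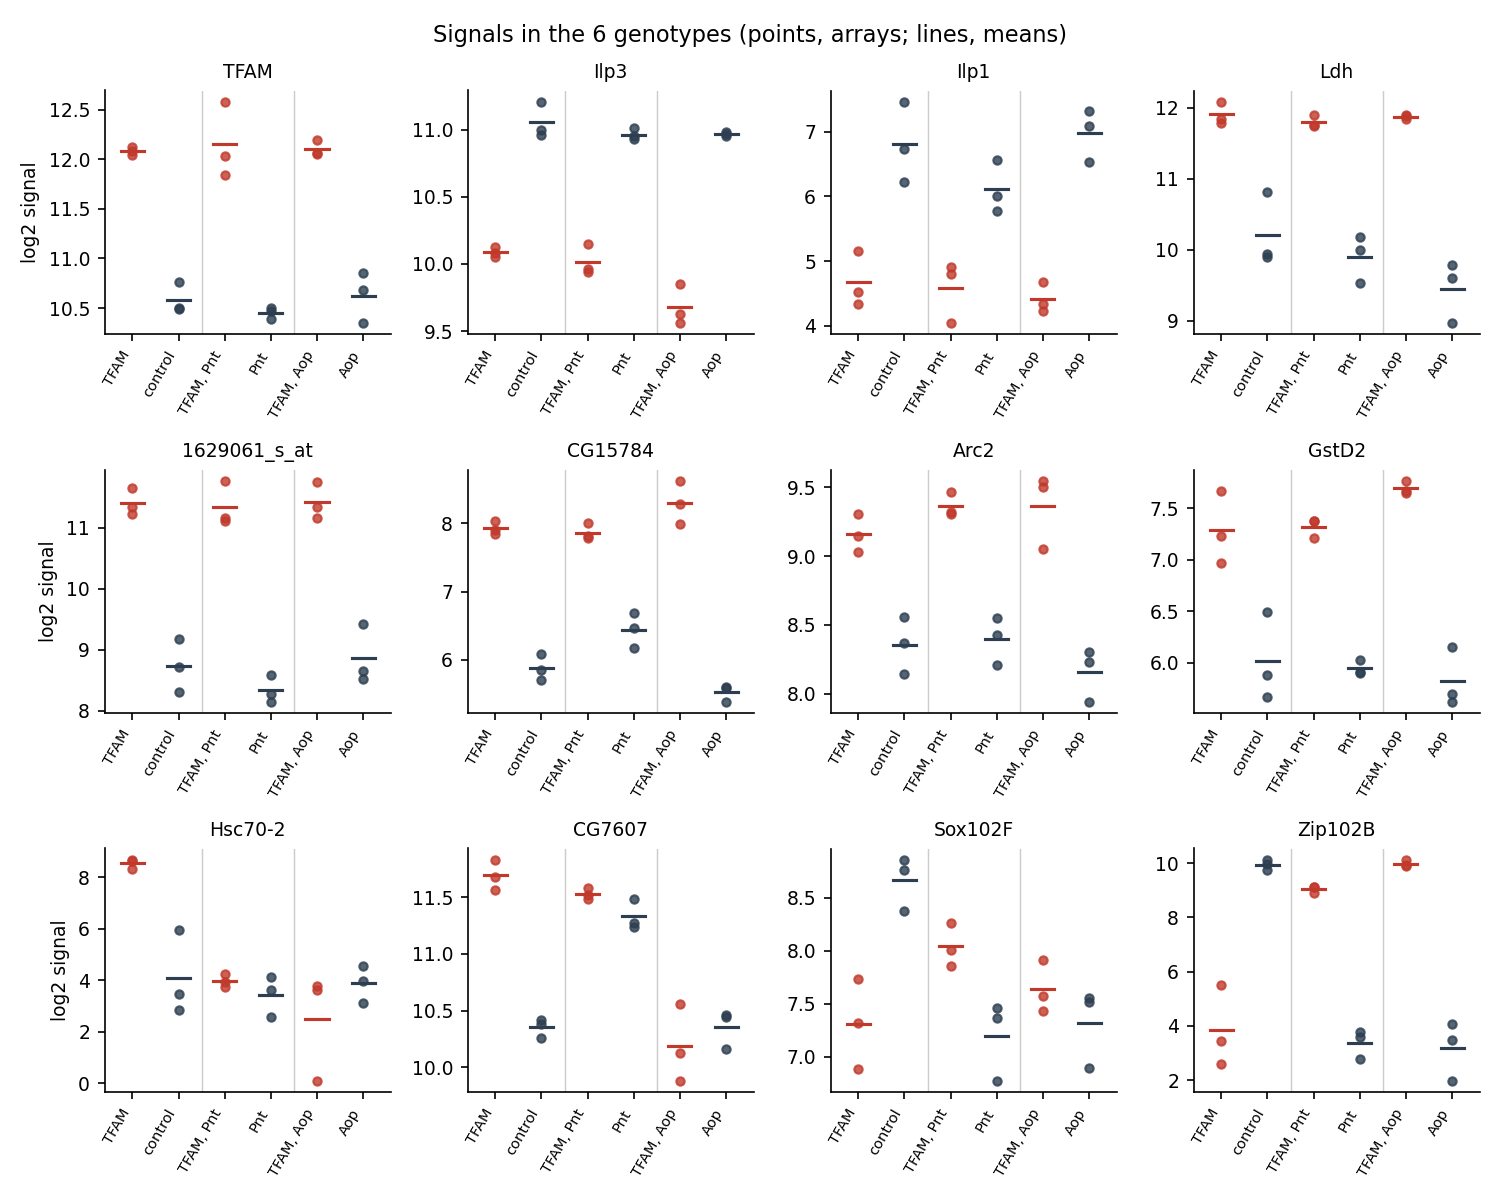
Log2 signal (y axis) in the 6 genotypes (x axis, each TFAM o/e genotype left of its own background) for 12 probe sets, with a point per array and a line at the mean, red with and dark without TFAM overexpression. TFAM, Ilp3, Ldh, 1629061_s_at and CG15784 separate the arrays with TFAM overexpression from those without it in all 3 backgrounds, while Hsc70-2 is above log2 6 only in the TFAM o/e arrays and Zip102B changes direction.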

How the data were processed

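CNS RNA was labelled with the Nugen Ovation V2 kit and hybridized to Affymetrix Drosophila Genome 2.0 arrays. The authors processed the arrays with MAS5 in the Transcriptome Analysis Console and deposited log2 signals, used here without further scaling. MAS5 gives dim probe sets a wide spread on the log2 scale. Of 18952 rows 183 control probe sets were left out. Of the 18769, 13647 carry 1 symbol, 402 several and 4720 none. Symbols were updated through RefSeq for 13544, and 95 others were named through the study's tables (Ldh, Ilp1, Ilp3, Hsl, sens-2 and pnt among them).

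The test was limma 3.58.1 under R 4.3.3, a single model of the 6 genotypes (eBayes with an intensity trend, 12 residual degrees of freedom, Benjamini-Hochberg over all probe sets, threshold 0.05). Changes are TFAM o/e minus control. Nothing in the labels says that replicates are separate cultures, so p-values measure only the spread between these samples. Named are the called probe sets, fixed genes, list members with the largest changes and the 10 probe sets next to the threshold. Other list members (PolrMT, PolG1, Akt, foxo, ImpL2, AsnS, Hex-A, Pfk, Eno, GstE14, Sod2 and Cat) were added after their values were seen. The members and lists were chosen with earlier results of these data known, and list symbols were corrected once the annotation was seen. The alternatives tried were median centring, quantile normalization, a filter at a mean log2 of 6, a floor at a signal of 32, no trend, only the arrays compared, the replicate block, array quality weights, the methods' t-test and leaving out each array.

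The fit was tested on simulated data with known changes. It recovered 20.9% of 1.5-fold, 71.6% of 2-fold and 97% of 4-fold changes, and called 8 of 18569 unchanged probe sets. Most 1.5-fold changes were therefore missed in these simulated data. They held no array like control replicate 3 and no correlation between arrays, so the rates may differ for the real arrays. Plots were made with matplotlib 3.10.9 under Python 3.11.15.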

Additional observations from a re-analysis of the deposited data

Results flagged for a closer look

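The test of the difference between the effects of TFAM overexpression in 2 backgrounds passed for 3 of the 24 called probe sets, and over all 18769 probe sets for 5 under Pnt RNAi and 10 under Aop RNAi. For Zip102B the effect with Pnt RNAi minus that in the control background was 11.77 on the log2 scale (± 0.78 SE, limma adjusted p = 1.99e-07), and 12.9 with Aop RNAi (± 0.78 SE, adjusted p = 4.15e-08). With signals under 32 set to 32 these were 8.83 and 9.75, and both passed with each of the 6 arrays left out. For CG7607 the difference with Aop RNAi was -1.5 (± 0.21 SE, limma adjusted p = 0.0053), with effects of -0.16 with Aop RNAi and 1.34 in the control background, and it passed with each of the 6 arrays left out. For Sox102F the difference with Pnt RNAi was 2.2 (± 0.36 SE, limma adjusted p = 0.0274), with effects of 0.85 with Pnt RNAi and -1.35 in the control background. This call was lost in 4 of the 6 fits with an array left out, up to an adjusted p of 0.124 without control replicate 1. Arrays labelled Pnt RNAi alone read 6.77 to 7.46 for Sox102F, under the 8.37 to 8.86 of control arrays.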

How the results depend on the processing

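All values here are counts of called probe sets unless named otherwise. When 1 of the 6 arrays was left out, the total of 34 ranged from 16 (without TFAM o/e replicate 2) to 24, higher calls from 9 to 16, lower calls from 6 to 9, calls with a mean log2 of 6 or more from 12 to 19, and calls repeated with Pnt RNAi (10 of the 34) or Aop RNAi (11) from 7 to 9 each. Of the 24 with a mean log2 of 6 or more, 9 held in every such fit, and leaving out an array cost between 7 (TFAM o/e replicate 1) and 13 (TFAM o/e replicate 2) of them. Only the 6 arrays compared left 2 calls (2 higher, 0 lower), 1629061_s_at and TFAM, and 2 repeated in each background, with 4 residual degrees of freedom. Lower calls were 8 after median centring, which moved the median change over the 8556 probe sets to 0.09, and higher calls were 13 with signals under 32 set to 32. Without the intensity trend 14 calls had a mean log2 of 6 or more. Array quality weights gave 76 calls (45 higher, 31 lower, 53 with a mean log2 of 6 or more, 23 repeated with Pnt RNAi). The cause of these shifts was not tested. The methods' t-test gave 0 after Benjamini-Hochberg, and 866 at an unadjusted p under 0.05. At that p and a fold change of 1.5 it gave 209 higher and 303 lower, against 291 and 478 with limma. The labels do not say whether replicate numbers pair the arrays. Residual correlations between TFAM o/e and control arrays of the same number were 0.342, -0.104 and 0.357. Between arrays of numbers 1 and 3 they were -0.442 and -0.342. With the replicate block 44 were called, all 34 among them. The limma adjusted p of Thor, whose arrays share an order by number in all 6 genotypes, was then 0.000627. None of the 34 changed direction under any of these alternatives. Their groups do not overlap, so leaving out an array, array quality weights, the floor or the t-test could not have reversed a direction. Of the 34, 29 were called after quantile normalization and 28 after median centring. Depth is set by the signal over background. With signals under 32 set to 32 the calls of 16 of the 34 were lost, and 14 of the 24 with a mean log2 of 6 or more kept theirs. Not all lost calls were dim. The change of botv stayed at -1.35, with a limma adjusted p of 0.0565. Why brighter probe sets lost their calls was not tested.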
